A study of Mus musculus with 26 samples.

Results

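Mouse J1 embryonic stem cells with knockdown of Mettl14 were compared with cells given a scrambled control, both at the 8 h point of a time course. The 4 arrays compared, 2 per group, are those titled Mettl14 KD or Scramble at 8h, of 26 arrays in the series. The knockdown arrays carry the treatment Mettl14 KD, and the scramble arrays carry the treatment Wild type. All groups of the series share the J1 line, serum, leukaemia inhibitory factor and a feeder layer of irradiated mouse embryonic fibroblasts. The other arrays drawn on here are Mettl14 KD and Scramble at 0 h and 4 h, Mettl3 KD at 8 h, and a repeat set in which Mettl14 KD at 0 h has a scramble control of its own, with 2 arrays in each group. The labels describe lentiviral short hairpin RNA with puromycin selection and also transfected small interfering RNA, without saying which cells had which. They do not say what the cells were given during the 4 h or 8 h. By its title the series asks how RNA methylation bears on the stability of transcripts that encode developmental regulators.

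Mettl14 and Mettl3 form the core of the enzyme complex that methylates adenosine at the N6 position (m6A) in messenger RNA. Mettl3 carries out the reaction and Mettl14 helps to hold the RNA, while Wtap, Virma, Rbm15, Zc3h13 and Cbll1 place the complex on its substrates. Proteins of the YTH family bind the mark and several of them speed the decay of the marked transcript, and Fto and Alkbh5 remove it. In mouse embryonic stem cells many transcripts of pluripotency factors and of lineage regulators carry the mark.

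The labels give 3 target sequences for small interfering RNA against Mettl14, a gene at chr3:123368295-123385990 in the mouse build GRCm38.p6. They are shown because every result below depends on how far Mettl14 was lowered. Capitals mark bases 12 to 18 of each 19-base target, which pair with bases 2 to 8 of the guide strand.
Target 1: ccggatgtacaGAGGAAAt
Target 2: gggaactcatcAGACTAAa
Target 3: gcacctcggtcATTTATAt

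The arrays were Affymetrix Mouse Gene 2.0 ST, hybridised with labelled poly(A) RNA, and the deposited values are log2 signals per probe set. Of 22180 genes with a probe set of their own, 14787 passed a filter on dim genes and were tested. Replicates correlated across probe sets at r = 0.9869 for Mettl14 knockdown at 8 h, the lowest of the 13 groups, and at 0.9887 for scramble at 8 h. With 2 arrays per group, precision is limited by the number of arrays, and the p-values reflect only how far these arrays scatter, which may be technical. Of 9 tested embryonic stem cell markers, 1 was higher and 5 were lower in the knockdown. The summed linear signal of all 10 such markers, tested or not, was 21565 and 21602 in Mettl14 knockdown, against 27054 and 25907 in scramble. The cell type's markers were thus present in both groups. Of 17 tested fibroblast markers 5 were higher and 3 lower. The sums over all 20 fibroblast markers, tested or not, were 8896 and 8515 in Mettl14 knockdown, against 6674 and 7040 in scramble. None of 5 blood markers passed the filter on dim genes. The part of feeder cells in the results below was not tested, and fewer cells of a type cannot be told apart from less RNA per cell.

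Mettl14 itself had log2 signals of 6.39 and 6.56 in its knockdown, against 9.14 and 9.12 in scramble. The groups stood far apart, and the knockdown level was 15.9% of scramble (log2 change -2.66 ± 0.13, limma adjusted p = 1.69e-08; ± is the standard error of limma throughout). At 0 h Mettl14 stood at 30.9% of scramble (log2 change -1.70), so the change was larger at 8 h by a difference of -0.96 ± 0.19 (adjusted p = 0.0139). Leaving out replicate 2 of Mettl14 knockdown at 0 h or replicate 1 of scramble at 0 h ended that call. The scramble level moved by 0.04 over the 8 h, whereas the knockdown level fell by 0.92. The only probe set for Mettl3 is shared with Tox4 and changed by -0.47 ± 0.10 at 8 h (unadjusted p = 0.000504), while a probe set of Tox4 alone changed by -0.18 ± 0.06.

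Some other subunits of the methylating complex were higher in Mettl14 knockdown than in scramble at 8 h. Wtap, the regulatory subunit, had log2 signals of 8.94 and 9.07 in Mettl14 knockdown, against 8.42 and 8.41 in scramble, a rise of 0.58 ± 0.06 (adjusted p = 9.46e-06). Cbll1, a ubiquitin ligase of the complex, had 8.67 and 8.79, against 8.17 and 8.18 in scramble, a rise of 0.56 ± 0.08. Neither pair of groups overlapped. Rbm15 (0.28) and Virma (0.21) also rose, but both calls were lost on leaving out replicate 2 of Mettl14 knockdown. Rbm15b, Zc3h13 and Mettl16 did not pass, at 0.20, -0.04 and -0.14. At 0 h neither Wtap (-0.03) nor Cbll1 (0.10) passed. These are differences from scramble and not rises over time. Between 0 h and 8 h in Mettl14 knockdown, 0 of 8 tested m6A writers, Mettl14 included, were higher and 4 lower (median -0.29). In scramble 1 was higher and 4 lower (median -0.22). Over all genes tested 36.8% were higher and 19.4% lower in knockdown, against 39.2% and 21.6% in scramble. Among proteins that erase or read the mark, 4 of 12 tested were higher and 4 lower: the demethylase Alkbh5 rose by 0.49 ± 0.06, the reader Ythdc1 by 0.33 ± 0.04 and the RNA-binding protein Igf2bp3 by 1.06 ± 0.05, and the demethylase Fto fell by 0.47. The count of 4 lower became 1 without replicate 1 of Mettl14 knockdown or without replicate 2 of scramble.

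At 8 h 3525 genes were higher in Mettl14 knockdown, 23.8% of the 14787 tested, and 2926 were lower, 19.8%, at an adjusted p under 0.05. The counts of gene lists for Mettl14 knockdown against scramble at 8 h are to be read against these 2 shares. The median change over all genes tested was -0.0075 on the log2 scale. Most of these changes were small, with a median size of 0.41 among the 6451 genes that passed and a median standard error of 0.088. The higher side was longer: 398 genes were at least 2-fold higher, 2.69% of those tested, and 82 were at least 2-fold lower, 0.555%. Between 1 and 2 on the log2 scale lay 358 rises and 74 falls, and at 2 or more lay 40 rises and 8 falls. The 2 groups overlapped for 8 of the genes that passed. Over all 14787 genes tested they did not overlap for 9962, so groups of 2 arrays that stand apart are common.

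**Figure D1:**
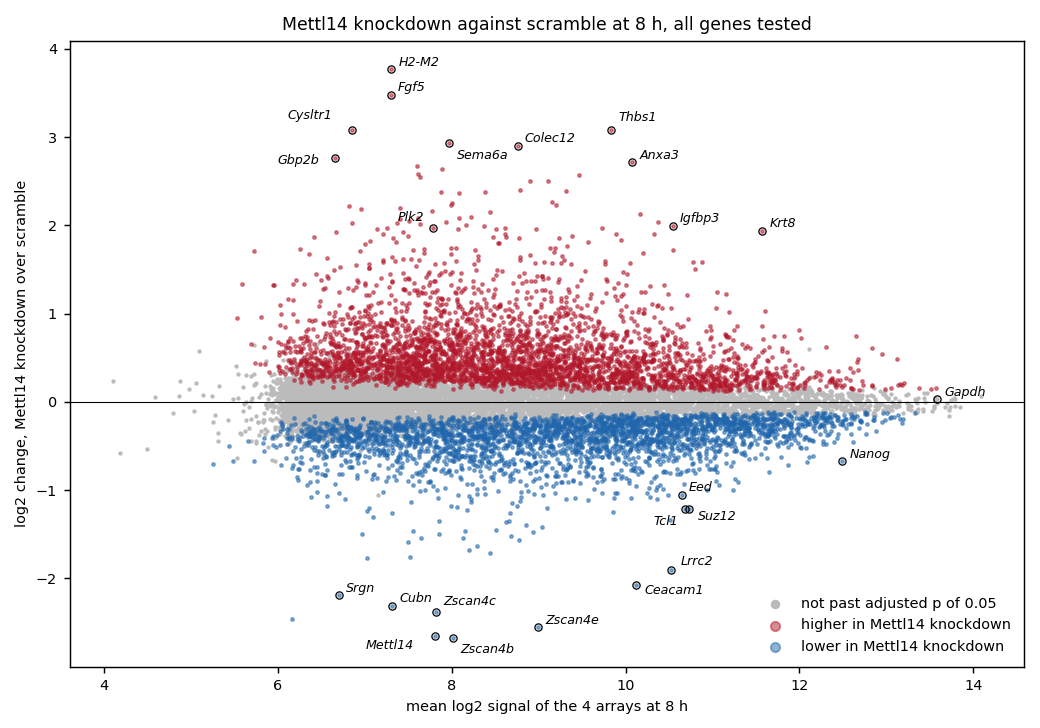
Log2 change at 8 h (Mettl14 knockdown over scramble) against the mean log2 signal of the 4 arrays, one point per gene tested, with genes named in the text circled. Rises reach 3.77 and falls reach -2.68, and the upper side holds more changes of at least 2-fold, 398 against 82.

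The 8 largest rises by measured difference, predicted or unnamed genes apart, were spread over several families. H2-M2, a non-classical class I histocompatibility gene, had log2 signals of 9.17 and 9.21 in Mettl14 knockdown, against 5.56 and 5.28 in scramble, a measured rise of 3.77 ± 0.09 (adjusted p = 1.51e-10). Fgf5, a growth factor of the primed epiblast, had 9.04 and 9.03 in knockdown, against 5.73 and 5.39 in scramble, a measured rise of 3.48 ± 0.12. For both genes the knockdown arrays lay close together. Thbs1, a matrix glycoprotein bound by cell-surface receptors, had 11.32 and 11.42 in knockdown, against 8.40 and 8.18 in scramble (3.08 ± 0.09, 8.47-fold). Cysltr1, a receptor for cysteinyl leukotrienes, had 8.26 and 8.54 in knockdown, against 5.17 and 5.47 in scramble (3.08 ± 0.17). The guidance molecule Sema6a rose by 2.93 ± 0.09, the scavenger receptor Colec12 by 2.90 ± 0.10, the interferon-inducible Gbp2b by 2.76 ± 0.17 and the annexin Anxa3 by 2.71 ± 0.07. In scramble H2-M2, Fgf5, Cysltr1 and Gbp2b lay below 5.998, the lowest mean signal of a gene that was tested. No detection call was used, so their size and order are uncertain. Set against 5.998 in place of the scramble mean, the rise was at least 9.14-fold for H2-M2, 8.22-fold for Fgf5, 5.27-fold for Cysltr1 and 4.12-fold for Gbp2b. All 8 had passed in the same direction at 0 h, at 4 h and in the repeat set, where the rises ran between 0.49 for Cysltr1 and 1.83 for Colec12.

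Mettl14 was the second of the 8 largest falls, and 3 others were members of the Zscan4 family, genes active in the 2-cell embryo and in rare stem cells that resemble it. Zscan4e had log2 signals of 7.46 and 7.97 in Mettl14 knockdown, against 10.32 and 10.23 in scramble, a fall to 17.0% (-2.56 ± 0.18, adjusted p = 2.91e-07). Zscan4b fell by 2.68 and Zscan4c by 2.38. Members of this family share much of their sequence, so a probe set may read more than 1 of them. Cubn, an endocytic receptor of visceral endoderm, had 6.07 and 6.25 in knockdown, against 8.46 and 8.48 in scramble (-2.31 ± 0.11). Srgn, a granule proteoglycan, had 5.54 and 5.68 in knockdown, against 7.45 and 8.14 in scramble (-2.19 ± 0.27), with the scramble arrays well apart and the knockdown arrays below 5.998, against which the fall was at least 3.48-fold. Ceacam1, a cell adhesion molecule, had 9.01 and 9.15 in knockdown, against 11.21 and 11.09 in scramble (-2.07 ± 0.09). Lrrc2 fell by 1.91. In the repeat set the fall of Ceacam1 was -2.43, and that of Zscan4e was -0.76.

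**Figure D2:**
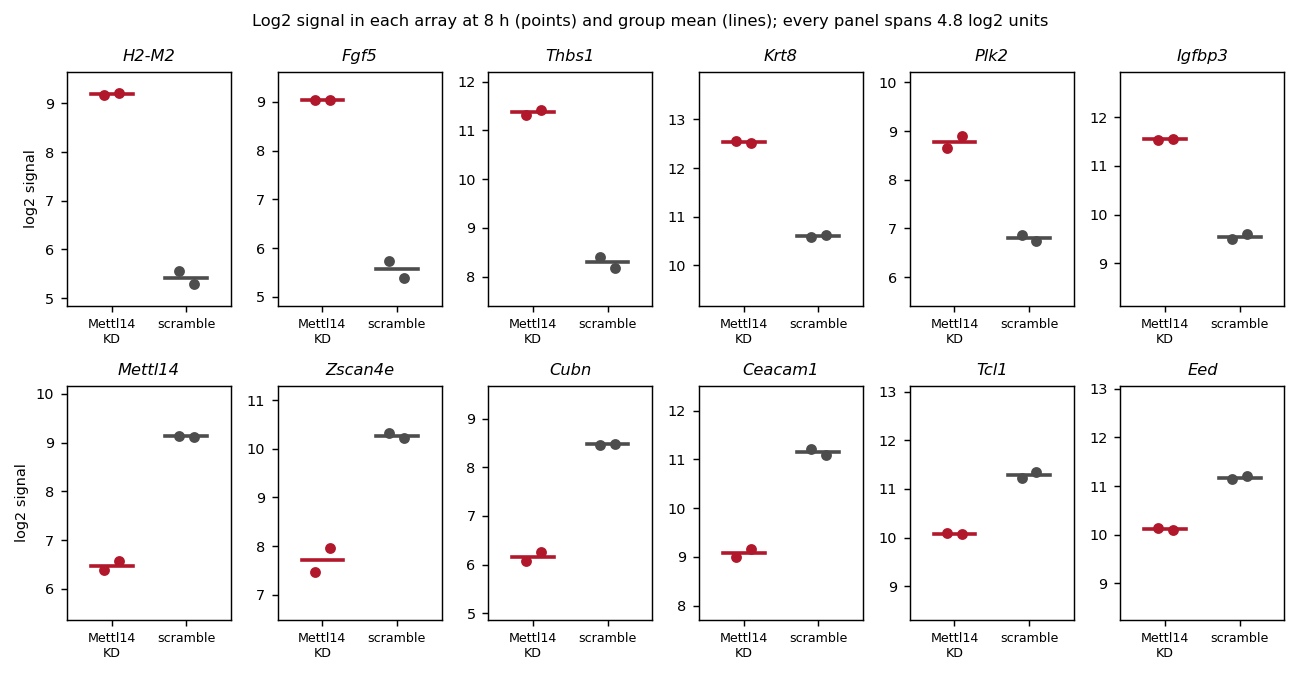
Log2 signal in each array at 8 h for 6 genes that rose (top) and 6 that fell (bottom), Mettl14 knockdown left and scramble right in each panel, with points for arrays and lines for group means. The groups do not overlap in any panel, and arrays of one group lie close together except those of Zscan4e in the knockdown, at 7.46 and 7.97.

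Genes of the actin cytoskeleton and of the YAP pathway were the list most often higher: 23 of 28 rose and 0 fell, with a median change of 0.77. This list joins targets of YAP, a co-activator that responds to cell shape, with contractile genes driven by serum response factor. Beside Thbs1 and Anxa3, Cnn1, a calponin of actin filaments, had log2 signals of 9.92 and 9.98 in Mettl14 knockdown, against 7.94 and 8.04 in scramble (1.96 ± 0.06). The actin-binding Cald1 rose by 1.86 ± 0.06, and smooth muscle actin, Acta2, by 1.09 ± 0.08, whereas beta-actin, Actb, did not pass at 0.14 ± 0.08. Chosen after its values were seen, Tagln rose by 2.12. Yap1 and its DNA-binding partner Tead1 did not pass, at -0.03 and -0.11. The same list had 24 rises at 0 h, where 19.4% of all genes tested were higher, 24 at 4 h (20.0%) and 22 in the repeat set (19.4%), with medians of 0.98, 0.77 and 0.48.

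The stretch of 250 bases before the annotated start was searched on both strands for the CArG box, the site of serum response factor. It was present for 3 of 22 genes of this list with a sequence, 13.6%, and for 170 of 11545 tested genes with a sequence, 1.47%. Among all genes higher at 8 h it was present for 47 of 2811, 1.67%, and among those lower for 27 of 2348, 1.15%. The list was drawn up in part from known targets of serum response factor, so its share is no independent evidence. A match in letters is not evidence of binding, and a window without one says only that the letters are not there. The 3 windows, from RefSeq on GRCm38.p6 and read along each gene's plus strand, are printed because they belong to genes that rose together, with the CArG box in capitals. They lie at chr10:79988350-79988599 for Cnn2 (rise 0.65), chr2:156775214-156775463 for Myl9 (rise 1.28) and chr14:20929148-20929397 for Vcl (rise 1.23). These 3 genes were picked by the match and not by the rule for named genes.
Cnn2: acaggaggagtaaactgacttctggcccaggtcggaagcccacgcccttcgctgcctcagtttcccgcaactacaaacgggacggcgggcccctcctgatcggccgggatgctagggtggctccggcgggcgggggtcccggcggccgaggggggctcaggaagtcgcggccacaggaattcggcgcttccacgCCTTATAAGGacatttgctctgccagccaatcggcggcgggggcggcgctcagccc
Myl9: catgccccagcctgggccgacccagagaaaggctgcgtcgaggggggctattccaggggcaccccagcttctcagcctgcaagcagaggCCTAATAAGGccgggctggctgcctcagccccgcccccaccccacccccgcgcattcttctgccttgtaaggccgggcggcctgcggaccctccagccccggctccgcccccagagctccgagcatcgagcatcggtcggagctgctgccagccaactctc
Vcl: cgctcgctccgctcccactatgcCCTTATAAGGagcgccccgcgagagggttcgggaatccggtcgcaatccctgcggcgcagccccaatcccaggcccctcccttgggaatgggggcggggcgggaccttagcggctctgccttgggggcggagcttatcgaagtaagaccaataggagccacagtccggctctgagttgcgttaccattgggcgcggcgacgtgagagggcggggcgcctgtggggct

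Targets of p53, a transcription factor switched on by DNA damage and other stress, were also largely higher: 19 of 26 rose and 2 fell, with a median of 0.68. Plk2, a stress-induced kinase, had log2 signals of 8.66 and 8.89 in Mettl14 knockdown, against 6.88 and 6.74 in scramble (1.97 ± 0.10). Perp, a membrane protein of cell death and of desmosomes, rose by 1.59 ± 0.09, the death receptor Tnfrsf10b by 1.45 ± 0.07 and Trp53inp1 by 1.31 ± 0.05. The cell cycle inhibitor Cdkn1a had 8.73 and 8.69 in knockdown, against 8.00 and 7.67 in scramble (0.87 ± 0.11). The 2 that fell were Gtse1 (-0.26) and Xpc (-0.20), named here after their values were seen, of which only 1 passed without replicate 1 of Mettl14 knockdown or without replicate 2 of scramble. In the repeat set, 6 of the 26 were higher and 7 lower, with a median of -0.01, and Trp53inp1, at -0.0035, did not pass. Of all genes tested, 19.4% were higher and 16.9% lower there. At 0 h of the time course, the same labelled time as the repeat set, 18 were higher and 2 lower, with a median of 0.62. The shares over all genes tested at 0 h were 19.4% and 20.1%. The difference between the sets was not tested. Among genes of the Bcl2 family and of apoptosis, 11 of 25 rose and 1 fell, with Casp8, the initiator caspase of death receptors, at 1.81 ± 0.08, Bcl2l1 at 0.67 ± 0.08 and Mcl1, both of which protect cells, at 0.51 ± 0.05.

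Growth factor pathways were shifted upward in part. Of 12 tested genes of the insulin-like growth factor system, 9 rose and 0 fell, with a median of 0.58. Igfbp3, a secreted binding protein of these factors, had log2 signals of 11.53 and 11.55 in Mettl14 knockdown, against 9.50 and 9.59 in scramble (1.99 ± 0.08). Igfbp2 rose by 0.91 ± 0.06, and the receptors Igf1r and Insr by 0.80 ± 0.07 and 0.65 ± 0.07. In the Wnt pathway 14 of 31 rose and 2 fell: Wls, which escorts Wnt proteins to the surface, by 2.38 ± 0.10, the ligands Wnt4 and Wnt3 by 1.65 ± 0.10 and 1.36 ± 0.09, and the receptor Fzd2 by 1.24 ± 0.14. The count of 14 became 9 without replicate 2 of scramble. Axin2, a common target gene of the pathway, was at -0.02 and did not pass; it was named after its value was seen. In the BMP, Nodal and TGF-beta pathway 18 of 34 rose and 6 fell, with the ligand Tgfb2 at 1.52 ± 0.11, the targets Id2 and Id3 at 1.37 ± 0.06 and 0.81 ± 0.09, and the receptor Bmpr2 at 0.70 ± 0.06. The 6 falls became 1 without replicate 1 of Mettl14 knockdown and 3 without replicate 1 of scramble. Of 21 genes of the FGF and ERK pathway 8 rose and 4 fell, the 4 becoming 2 without replicate 1 of either group. Fgf5 apart, Dusp4 and Dusp5, which dephosphorylate ERK, rose by 1.05 ± 0.09 and 0.63 ± 0.08.

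Markers of primed and of other lineages did not move as a block. Primed epiblast genes were higher in 9 of 14 cases and lower in 2, with Lef1 at 1.01 ± 0.12, Sox4 at 0.89 ± 0.12 and the DNA methyltransferase Dnmt3b at 0.39 ± 0.05 besides Fgf5. The 2 falls became 1 without replicate 1 of either group. For trophoblast genes and keratins of simple epithelium the count was 12 higher and 3 lower of 21. Krt8 had log2 signals of 12.56 and 12.51 in Mettl14 knockdown, against 10.58 and 10.62 in scramble (1.93 ± 0.05, adjusted p = 1.51e-10), and its partner Krt18 rose by 2.04 ± 0.05. Krt42 went the other way, with 8.15 and 8.29 in knockdown, against 9.29 and 9.40 in scramble (-1.13 ± 0.08). Neural genes counted 5 higher and 4 lower of 20: Nefl, a neurofilament, had 10.75 in both knockdown arrays, against 8.18 and 8.19 in scramble (2.57 ± 0.08), the intermediate filament Nes rose by 2.15 ± 0.07, and the neuronal tubulin Tubb3 fell by 0.87. In the repeat set Nes did not pass, at 0.04. The 4 lower neural genes became 2 without replicate 2 of scramble. Mesoderm genes (4 higher and 3 lower of 21) and endoderm genes (5 higher and 4 lower of 21) held single strong changes, such as Eomes at 1.33 ± 0.11, Lrp2 at 1.40 ± 0.05 and the laminin Lama1 at -1.03 ± 0.08. The 3 lower mesoderm genes became 1 without replicate 1 of scramble, and the 4 lower endoderm genes became 2 without replicate 2 of either group.

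Core and naive pluripotency genes were lower in 19 of 32 cases and higher in 3, with a median of -0.23. Tcl1, a co-activator of the kinase Akt, had log2 signals of 10.09 and 10.08 in Mettl14 knockdown, against 11.23 and 11.35 in scramble, a fall to 43.2% (-1.21 ± 0.06). The transcription factors Nanog (12.15 and 12.16 in knockdown, against 12.86 and 12.80 in scramble, -0.68 ± 0.05), Tfcp2l1 (-0.94 ± 0.06) and Esrrb (-0.59 ± 0.08) fell, as did Fbxo15, to 50.1% of scramble. Pou5f1, Sox2 and Klf4 did not pass at 8 h. Pou5f1 had 8.44 and 8.55 in knockdown, against 8.60 and 8.59 in scramble (-0.10 ± 0.11, adjusted p = 0.527), Sox2 was at -0.10 ± 0.10 and Klf4 at -0.18 ± 0.10. The 3 that rose were Mycn (0.52 ± 0.07), and, named after their values were seen, Fgf4 (0.52) and Gdf3 (0.30). In the repeat set at 0 h these 3 fell, by 0.21, 1.19 and 0.38. Myc itself was at -0.29 ± 0.14 and did not pass.

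Chromatin and germline genes were mostly lower. Among 25 tested Polycomb genes and DNA methylation enzymes, 13 fell and 3 rose, with a median of -0.24. Suz12 and Eed, which hold together Polycomb repressive complex 2, were among those that fell. Suz12 had log2 signals of 10.05 and 10.20 in Mettl14 knockdown, against 11.33 and 11.36 in scramble, or 43.0% (-1.22 ± 0.06). Eed had 10.13 and 10.10 in knockdown, against 11.14 and 11.21 in scramble, or 48.1% (-1.06 ± 0.04). Pcgf6 of a variant Polycomb complex fell by 0.58, and the oxidase Tet3 rose by 0.76 ± 0.08. Of 19 germline genes 10 fell and 0 rose, with a median of -0.59: Mael and Piwil2 of the piRNA pathway fell by 1.71 and 1.35, and Tex14 and Sohlh2 by 1.36 and 1.23. Of 18 listed 2-cell genes 8 were tested and 6 fell, with a median of -1.47. Zscan4a, Zscan4b, Zscan4c, Zscan4d and Zscan4e were among the 8. Probe sets of this family may read more than 1 member, so the 6 falls may not be separate measurements.

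Genes of proliferation and energy supply changed less in size than in number. Of 42 genes of DNA replication and mitosis 30 were lower and 2 higher, with a median of -0.24. The mitotic motor Kif11 had log2 signals of 11.15 and 11.19 in Mettl14 knockdown, against 11.82 and 11.80 in scramble (-0.64 ± 0.05), and Ccna2 (-0.61 ± 0.05), Ttk (-0.57 ± 0.05) and Mcm3 (-0.47 ± 0.05) fell as well. The 2 rises became 0 without any array other than replicate 2 of scramble, and none of the 42 genes fell 2-fold. G1 cyclins and their inhibitors split, 3 higher and 5 lower of 22, with Cdk6 at 0.35 ± 0.05 and Ccnd3 at -0.46 ± 0.07; the 5 lower became 8 without replicate 2 of Mettl14 knockdown. Of 38 genes of oxidative phosphorylation 20 were lower and 3 higher, with Ndufa8 at -0.42 ± 0.07 and Cox5a at -0.34 ± 0.06. The 20 became 12 without replicate 1 of Mettl14 knockdown or without replicate 2 of scramble, and the 3 rises became 1 without replicate 1 of scramble. Among 30 genes of amino acid stress and the unfolded protein response 8 rose and 12 fell, with Cth at 0.75 ± 0.06, Herpud1 at 0.57 ± 0.06, the transporter Slc7a1 at -0.84 ± 0.06 and Mthfd2 at -0.62 ± 0.07; the 8 rises became 4 or 5 without any of the 4 arrays in turn. Factors of deadenylation, decapping and decay counted 7 higher and 10 lower of 34, with Cnot10, Parn and Exosc10 each at -0.43 ± 0.05. Of 35 long-lived metabolic and cytoskeletal transcripts 6 were higher and 6 lower, with a median of -0.0079, and Gapdh was at 0.03 ± 0.04. The 6 higher became 2 without replicate 1 of scramble, and the 6 lower became 3 without replicate 1 of Mettl14 knockdown.

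Further lists are given for completeness. Fibroblast genes were higher in 8 of 20 cases and lower in 2, with the protease Mmp2 at 1.59 ± 0.08, Col5a1 at 0.67 ± 0.12 and Col1a1 at 0.59 ± 0.09, beside Col1a2 and Col3a1, which did not pass at 0.03 and 0.08 and were named after their values were seen. The 2 lower became 0 without replicate 2 of scramble and 1 without either knockdown array. Interferon-response genes split, 5 higher and 4 lower of 16: the antigen-presentation genes B2m, H2-K1 and Tap1 rose by 0.86 ± 0.07, 0.90 ± 0.10 and 0.91 ± 0.08, and the chemokine Cxcl10 by 0.99 ± 0.14. The 4 lower became 2 without replicate 1 of either group. Of 57 cytosolic ribosomal protein genes 4 were higher and 11 lower, and of 14 replication-dependent histones 2 were lower. Both families have near-identical copies and the values of single members, such as Rps13 at -0.98 ± 0.22, are uncertain. The 11 ribosomal falls became 4 without replicate 1 of Mettl14 knockdown and 7 without either scramble array, the 4 rises became 1 without replicate 1 of scramble and 2 without replicate 1 of Mettl14 knockdown, and the 2 histone falls became 6 without replicate 2 of Mettl14 knockdown and 1 without replicate 1. In the Myc family 2 rose and 6 fell of 13, which became 1 and 3 without replicate 1 of either group.

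**Figure D3:**
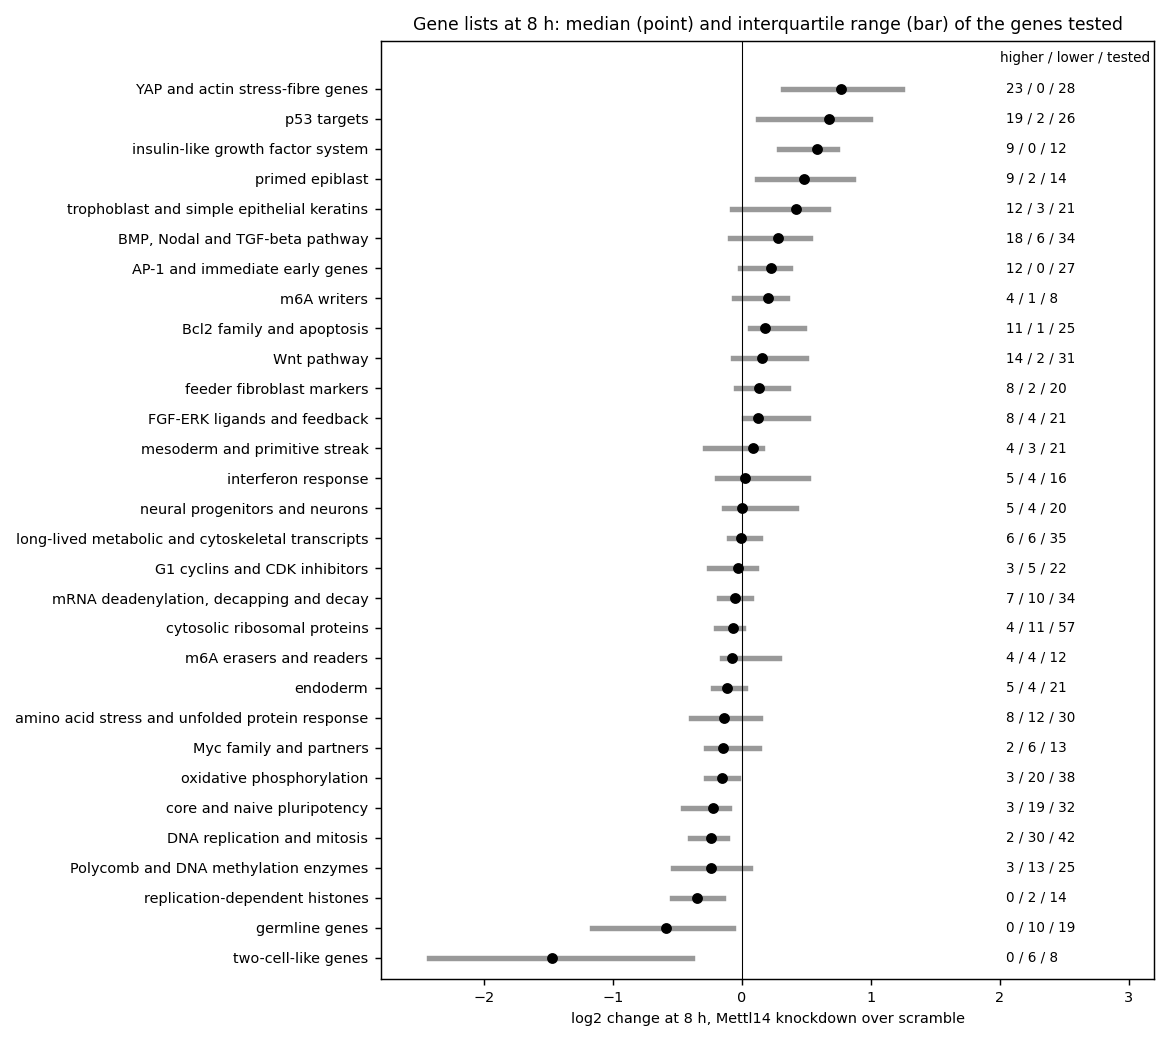
Median (point) and interquartile range (bar) of the log2 change at 8 h, Mettl14 knockdown over scramble, for 30 gene lists, with the numbers of genes higher, lower and tested at the right. Medians run between 0.77 for YAP and actin genes and -1.47 for 2-cell genes, against -0.0075 over all genes tested. Several of the 2-cell genes are Zscan4 members that share sequence.

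Whether the knockdown effect at 8 h differed from that at 0 h was tested as a difference of the 2 effects. It was higher at 8 h for 530 genes, 3.58% of those tested, and lower for 208, 1.41%. Higher and lower go by sign here, so a fall that was smaller at 8 h counts as higher and a larger fall as lower. The share of higher calls, 71.8%, became 54.9% after a further quantile normalization, 69.1% with the mean and 98.7% with the median of the long-lived transcripts set equal. The last scaling moved every difference by 0.24. Among the 530, scramble cells changed by a median of -0.61 over the 8 h and knockdown cells by -0.086. Among the 208, scramble cells changed by a median of 0.060 and knockdown cells by -0.44. Of the 530, 226 passed at 8 h and not at 0 h, and 85 at 0 h and not at 8 h. These are descriptions of genes chosen by the difference itself.

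The 5 largest measured differences upward were as follows. Nanp, a phosphatase of sialic acid synthesis, had log2 signals of 6.26 and 6.91 in Mettl14 knockdown, against 4.90 and 4.85 in scramble at 8 h, and 8.30 and 7.96 in knockdown, against 8.18 and 7.66 in scramble at 0 h (measured difference 1.50 ± 0.33). Its scramble arrays at 8 h lay below 5.998, so this size and its rank are uncertain. The difference did not pass with the mean of Nanp's probe sets, without the filter on dim genes, or with the 8 arrays fitted alone. The call was lost on leaving out replicate 2 of Mettl14 knockdown at 0 h or at 8 h, replicate 1 of scramble at 0 h, or replicate 2 of scramble at 8 h. Hs6st1, a heparan sulphate sulphotransferase, had 9.92 and 9.90 in knockdown, against 8.78 and 8.66 in scramble at 8 h, and 10.31 and 10.35 in knockdown, against 10.38 and 10.53 in scramble at 0 h (1.31 ± 0.10, adjusted p = 6.79e-05). S1pr2, a sphingolipid receptor, and Cdca4 had the same form, with differences of 1.25 ± 0.11 and 1.18 ± 0.15. For Bmp4, a ligand of the BMP pathway, the difference of 1.23 ± 0.19 joined a fall of 1.68 at 0 h with a fall of 0.45 at 8 h, whose own call was lost on leaving out replicate 1 of either group at 8 h or fitting the 4 arrays alone.

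In the opposite direction stood genes whose rise at 0 h was smaller or gone at 8 h. Ccn1, a matricellular target of YAP, had log2 signals of 8.26 and 8.18 in Mettl14 knockdown, against 7.90 and 7.74 in scramble at 8 h, and 11.77 and 11.74 in knockdown, against 9.48 and 9.18 in scramble at 0 h (difference -2.02 ± 0.13, adjusted p = 1.94e-05). Jun, a subunit of AP-1, had 8.56 and 8.50 in knockdown, against 8.63 and 8.47 in scramble at 8 h, where the groups overlapped, and 9.66 and 9.45 in knockdown, against 8.08 and 8.05 in scramble at 0 h (-1.52 ± 0.13). Irf2 did likewise (-1.18 ± 0.17, with an 8 h change of 0.03 ± 0.12 that did not pass). Irs2, an adaptor of insulin receptors, rose by 2.01 at 0 h and by 0.72 at 8 h (-1.29 ± 0.17), and the ephrin Efna5 by 2.54 and 1.44 (-1.10 ± 0.22, not past the threshold without replicate 2 of scramble at 0 h).

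**Figure D4:**
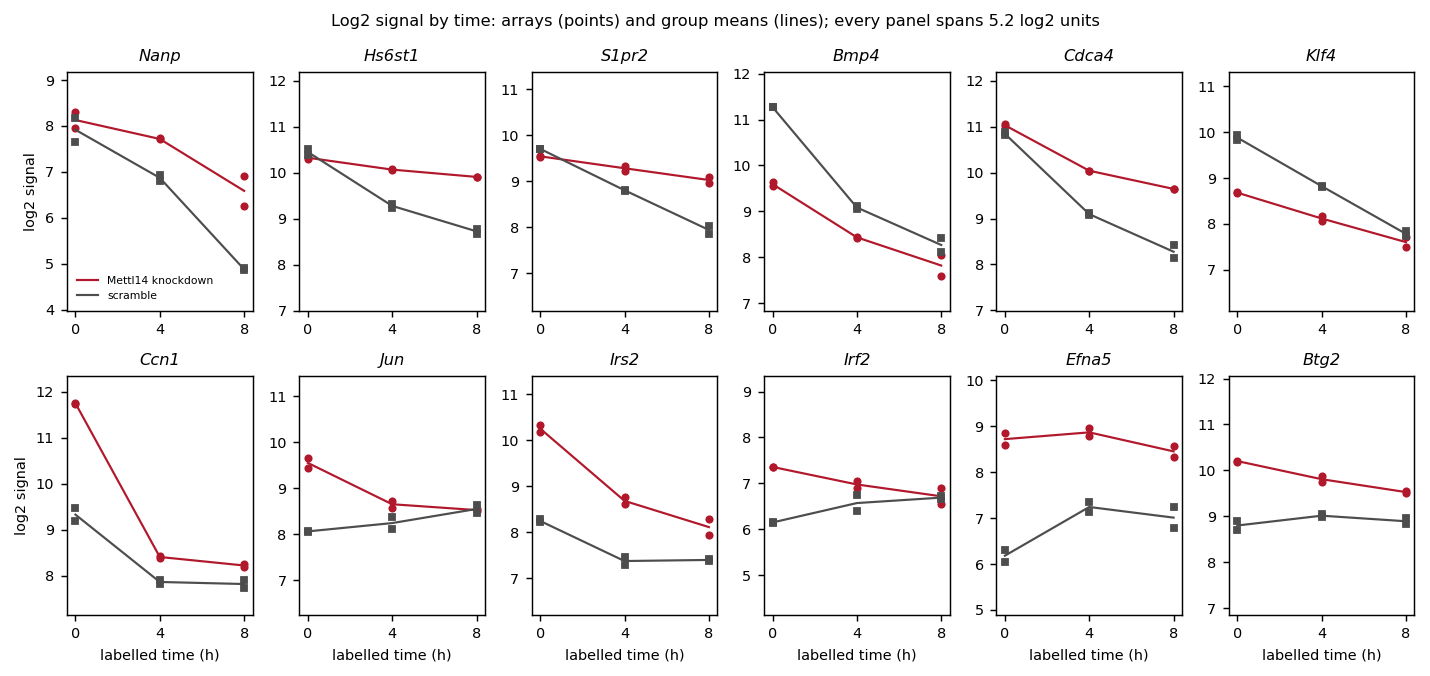
Log2 signal at the labelled times 0, 4 and 8 h in Mettl14 knockdown (circles) and scramble (squares), with lines through group means, for 12 genes whose knockdown effect at 8 h differed from that at 0 h. In the top row other than Bmp4 and Klf4 the scramble line drops below the knockdown line, and in the bottom row the knockdown starts higher and its lead shrinks, with Jun and Irf2 meeting scramble at 8 h.

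Among lists, 13 of 32 pluripotency genes had a higher signed effect at 8 h than at 0 h and 0 a lower one. The shares over all genes tested were 3.58% and 1.41%. The median effect of the list was -0.53 at 0 h and -0.23 at 8 h, a smaller fall at 8 h. The 13 became 5 to 9 when any array of the 4 groups was left out, with 5 without replicate 2 of scramble at 0 h. Klf4 had log2 signals of 7.49 and 7.72 in Mettl14 knockdown, against 7.84 and 7.73 in scramble at 8 h, and 8.69 and 8.67 in knockdown, against 9.83 and 9.93 in scramble at 0 h (1.02 ± 0.14, adjusted p = 0.00206). Over the 8 h its level fell by 1.08 in knockdown cells and by 2.10 in scramble cells, and at 8 h the groups lay side by side. For Pou5f1 the difference was 0.64 ± 0.16 and for Esrrb 0.49 ± 0.12. Each of them failed to pass in 7 of the 8 fits that left out an array, and Pou5f1 also after a further quantile normalization. For AP-1 and immediate early genes 12 of 27 were higher and 0 lower at 8 h, against 18 higher and 1 lower at 0 h. Over all genes tested the shares higher and lower were 23.8% and 19.8% at 8 h, and 19.4% and 20.1% at 0 h. The signed effect was lower at 8 h for 7, against 1.41% of all genes tested, and higher for 1, against 3.58%. Btg2, an anti-proliferative gene, had a difference of -0.77 ± 0.12 and Fosl2 of -0.61 ± 0.13, a call lost in 6 of the 8 fits that left out an array. Wtap (0.62 ± 0.09), the stress gene Herpud1 (0.83 ± 0.09), Id2 (0.54 ± 0.08) and Mycn (0.61 ± 0.09) had higher signed effects at 8 h. Eed (-0.49 ± 0.06) and Pcgf6 (-0.50 ± 0.08) had lower ones, as their falls were larger at 8 h.

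Over the 8 h itself many genes changed in both groups. Between 0 h and 8 h in Mettl14 knockdown 36.8% of genes tested were higher and 19.4% lower, against 39.2% higher and 21.6% lower in scramble. At least 2-fold lower were 582 genes in knockdown, 3.94%, and 774 in scramble, 5.23%, and at least 2-fold higher were 28 in knockdown, 0.189%, and 14 in scramble, 0.0947%. Sox2, a core pluripotency factor, fell by 2.53 in knockdown cells and by 2.69 in scramble cells, and Myc by 1.93 in knockdown cells and by 2.08 in scramble cells. Of 14 tested replication-dependent histones, from 45 listed, 13 fell in knockdown cells and 13 in scramble cells, with medians of -2.14 and -1.93. These values come from labelled poly(A) RNA and may not stand for all histone transcripts. Of 38 genes of oxidative phosphorylation, 32 rose in knockdown cells and 34 in scramble cells. Of 35 long-lived transcripts, 18 rose in knockdown cells and 22 in scramble cells. The median change over all genes tested was 0.12 in knockdown cells and 0.15 in scramble cells. The arrays were normalized to each other, so rises and falls over the 8 h are relative and not changes in amount per cell.

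Of the 2868 genes higher at 0 h (19.4% of those tested), 2295 were also higher at 8 h, 567 did not pass and 6 were lower. Of the 2978 lower at 0 h (20.1%), 2083 were also lower at 8 h, 866 did not pass and 29 were higher. Across the 14787 genes the 8 h changes correlated with those at 0 h at r = 0.833 and with those at 4 h, where 20.0% were higher and 19.5% lower, at r = 0.915. The 3 times share no array but come from one time course, and genes are not independent replicates. With the repeat set, which shares no array and has its own scramble controls at 0 h, r was 0.607. There 2864 genes were higher (19.4%) and 2494 lower (16.9%). Of genes higher at 8 h, 1856 were higher in the repeat set too, 52.7% of the 8 h calls and 64.8% of the repeat calls, and 211 were lower there. Of genes lower at 8 h, 1342 were lower in the repeat set, 45.9% of the 8 h calls and 53.8% of the repeat calls, and 98 were higher. The repeat set was compared at 0 h, so its difference from the 8 h values takes in both time and experiment.

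Mettl3 knockdown at 8 h used the same scramble arrays, so the 2 knockdowns were compared directly. Mettl14 knockdown was higher than Mettl3 knockdown for 575 genes, 3.89% of those tested, and lower for 643, 4.35%. Of these, 5 were at least 2-fold higher, 0.0338% of genes tested, and 7 at least 2-fold lower, 0.0473%. When the spread was estimated with the 4 arrays of these groups alone, limma called 0 higher and 1 lower, with 2268 genes at an unadjusted p under 0.05, so the counts rest on the spread shared over the time course. Against the shared scramble arrays 3519 genes were higher (23.8%) and 2815 lower (19.0%) in Mettl3 knockdown. Values of the 2 knockdowns against scramble are set side by side below and are not independent.

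Mettl14 was the gene most lowered, with log2 signals of 6.39 and 6.56 in Mettl14 knockdown, against 8.93 and 8.94 in Mettl3 knockdown (-2.46 ± 0.13). It did not pass in Mettl3 knockdown against scramble, at -0.20. Suz12, whose fall at 8 h is given above, had 11.23 and 11.25 in Mettl3 knockdown (-1.12 ± 0.06, adjusted p = 1.38e-06), and Mettl3 knockdown was at -0.10 against scramble. Caprin2, an RNA-binding protein, had 9.09 and 9.36 in Mettl14 knockdown, against 10.47 and 10.45 in Mettl3 knockdown (-1.23 ± 0.08). For these genes the Mettl3 knockdown arrays lay beside the scramble arrays. Zcchc10, with a zinc knuckle, had 8.00 and 8.24 in Mettl14 knockdown, against 9.41 and 9.27 in Mettl3 knockdown (-1.22 ± 0.08). In Mettl14 knockdown of the repeat set these falls were not of that size: Suz12 (-0.06) and Zcchc10 (-0.04) did not pass and Caprin2 fell by 0.17. Klhl4 was lower in Mettl14 than in Mettl3 knockdown (-1.10 ± 0.14): against scramble it rose by 0.54 in Mettl14 knockdown, a call lost without replicate 2 of Mettl14 knockdown, without replicate 1 of scramble or with the 4 arrays alone, and by 1.64 in Mettl3 knockdown.

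On the higher side, Stat3, the transcription factor that relays leukaemia inhibitory factor, had log2 signals of 11.05 and 10.98 in Mettl14 knockdown, against 10.06 and 9.97 in Mettl3 knockdown (1.00 ± 0.05). Against scramble it fell by 0.36 in Mettl14 knockdown and by 1.36 in Mettl3 knockdown. Serpinb9b, a protease inhibitor, had 8.88 and 9.09 in Mettl14 knockdown, against 7.71 and 7.40 in Mettl3 knockdown (1.43 ± 0.11). Its Mettl14 knockdown and scramble arrays overlapped. Apob, a lipoprotein component, had 8.85 and 8.95 in Mettl14 knockdown, against 7.48 and 7.46 in Mettl3 knockdown (1.43 ± 0.09), and lay above scramble in both. Ube2dnl1 (1.19 ± 0.14) and Fmr1nb (1.09 ± 0.12) complete the 5 largest differences upward. Counts of gene lists in this comparison are to be read against 3.89% of all genes tested higher and 4.35% lower. Of 26 p53 targets 3 were higher in Mettl14 than in Mettl3 knockdown, and of these Perp had 11.57 and 11.77, against 10.77 and 10.75 in Mettl3 knockdown (0.91 ± 0.09). The 3 became 1 or 2 when any of the 4 arrays was left out. Of 32 pluripotency genes 9 were higher and 2 lower, which became 5 or 6 higher and at most 1 lower when any of the 4 arrays was left out, with Nanog at 0.21 ± 0.05.

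**Figure D5:**
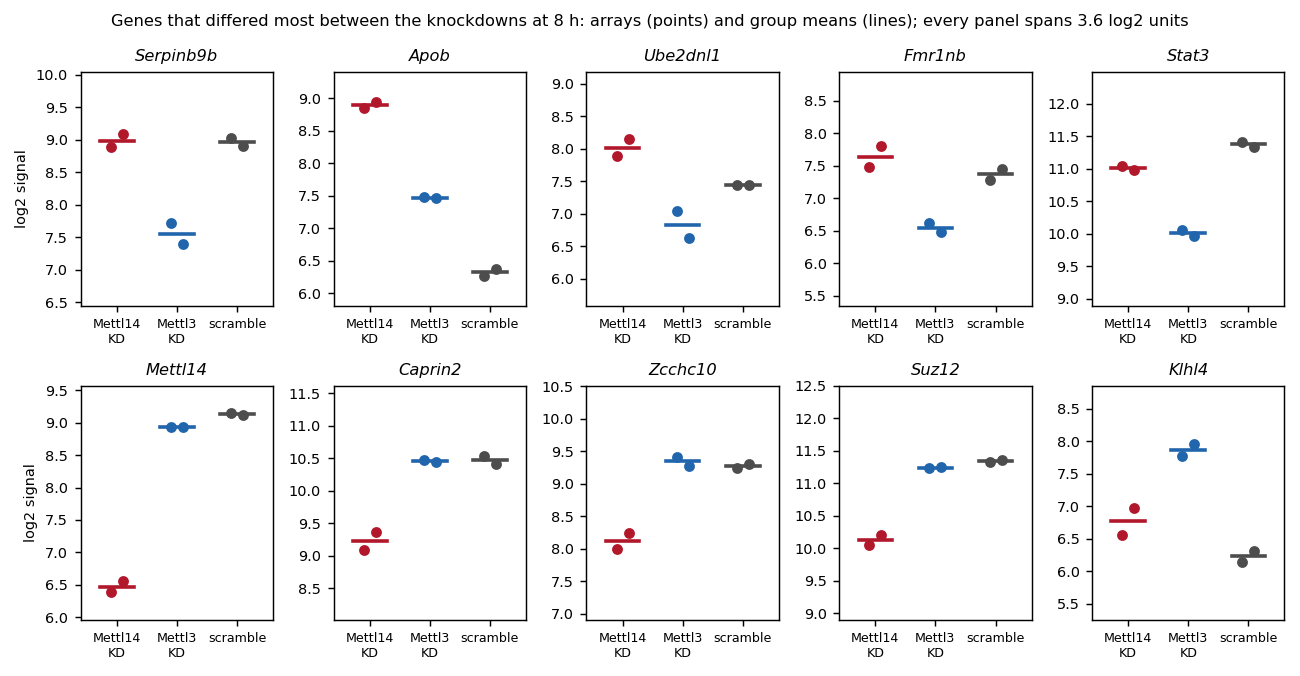
Log2 signal in each array at 8 h for the 10 named genes that differed most between the knockdowns, with Mettl14 knockdown, Mettl3 knockdown and scramble running left to right, points for arrays and lines for group means. Mettl14, Caprin2, Zcchc10 and Suz12 are low in Mettl14 knockdown beside Mettl3 knockdown arrays at the scramble level, and Serpinb9b, Fmr1nb and Stat3 are lowest in Mettl3 knockdown.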

How the data were processed

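The authors deposited one log2 signal per probe set and array, made from Affymetrix arrays with RMA in oligo per the submitters' processing notes. Background correction and quantile normalization across arrays therefore precede every value. A change shared by all genes, small or large, is not visible in such values. Of 41345 probe sets, 23521 name 1 gene, 1814 name several and 16010 are not listed in the platform annotation. The brightest probe set on average was used for each of 1082 genes with several. The dimmest 7393 genes were left out, leaving 14787 with a mean log2 signal of at least 5.998. limma 3.58.1 in R 4.3.3 was fitted to the 18 arrays of the time course (9 residual degrees of freedom), and separately to the 8 arrays of the repeat sets, with Benjamini-Hochberg adjustment over all genes tested. The fit was tested on simulated data. The labels call the arrays of a group biological replicates without tying them to separate cultures. Named genes were the 8 largest changes each way at 8 h and the 5 largest each way in the other contrasts, among genes past the threshold whose groups did not overlap and leaving out predicted or unnamed genes, up to 4 members per list by adjusted p, all methylating-complex members and a set list of reference genes. Genes named outside this rule are members of counted lists chosen after their values were seen. Members and lists were chosen with earlier results of these data known. Alternatives covered the filter, probe sets, scaling, array weights, the replicate block and leaving out each array.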

Additional observations from a re-analysis of the deposited data

Results flagged for a closer look

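A test of the difference between the knockdown effects at 8 h and at 0 h picked out 530 genes with a higher and 208 with a lower signed effect at 8 h. Among genes named by the rule, the difference was upward for Nanp (1.50), Hs6st1 (1.31), S1pr2 (1.25), Bmp4 (1.23), Cdca4 (1.18), Klf4 (1.02), Herpud1 (0.83), Apob (0.66), Tnfrsf10b (0.66), Pou5f1 (0.64), Wtap (0.62), Mycn (0.61), H2-M2 (0.55), Id2 (0.54), Esrrb (0.49), Cbll1 (0.45), Rbm15b (0.44), Mcl1 (0.39), Tcl1 (0.33), Alkbh5 (0.31) and Trp53inp1 (0.30). It was downward for Ccn1 (-2.02), Jun (-1.52), Irs2 (-1.29), Irf2 (-1.18), Efna5 (-1.10), Mettl14 (-0.96), Btg2 (-0.77), Fosl2 (-0.61), Wnt3 (-0.55), Pcgf6 (-0.50), Eed (-0.49), Krt8 (-0.40), Suz12 (-0.35), Ccna2 (-0.31), Kif11 (-0.31), Lrp2 (-0.29) and Ttk (-0.27). Leaving out 1 of the 8 arrays at a time ended the call in all 8 fits for Alkbh5, Tcl1, Kif11 and Ttk, in 7 for Pou5f1, Esrrb, H2-M2, Rbm15b, Trp53inp1, Suz12, Ccna2 and Lrp2, in 6 for Cbll1, Fosl2 and Wnt3, in 4 for Nanp, in 2 for Mettl14 and Apob and in 1 for Efna5. The calls of the other 19 genes named here held in all 8 fits, but not all of them held under the other alternatives. With the 8 arrays fitted alone, Bmp4, Btg2, Eed, Id2, Krt8, Mcl1, Pcgf6, Tnfrsf10b and Wtap did not pass. Krt8 also failed with the median of long-lived transcripts set equal, and Mcl1 when its probe sets were averaged. Each value is the log2 effect at 8 h minus that at 0 h, with 2 arrays in each of the 4 groups.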

How the results depend on the processing

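At 8 h the 3525 higher and 2926 lower genes became 398 and 82 with a 2-fold minimum, 2896 to 3267 and 2328 to 2770 when one array was left out, and 1795 lower when the 4 arrays were fitted alone. The difference between 8 h and 0 h was less stable than its 530 higher and 208 lower genes: 254 and 91 with no filter on dim genes, 325 and 105 with array weights, 4580 and 62 with the median of long-lived transcripts set equal, 53 and 12 with its 8 arrays alone, 796 and 372 with all 26 arrays, 15 and 7 with a 2-fold minimum, and 242 to 593 and 85 to 190 when one array was left out. The fewest higher genes came without replicate 1 of scramble at 0 h. Its counts also moved by over 1.5 times without replicate 2 of scramble at 0 h (274 and 95), of scramble at 8 h (280 and 92), of Mettl14 knockdown at 0 h (272 and 105) and, for higher genes, of Mettl14 knockdown at 8 h (279), and for lower genes without replicate 1 of Mettl14 knockdown at 0 h (133). For Mettl14 against Mettl3 knockdown, 575 and 643 became 370 and 394 with no filter, 373 and 423 with array weights, 423 lower with the equal median, 5 and 7 with a 2-fold minimum, 0 and 1 with the 4 arrays alone by limma (2268 genes at an unadjusted p under 0.05), and 276 to 372 and 204 to 679 when one array was left out. The cause was not tested. Setting the mean of long-lived transcripts equal, chosen after seeing the data, gave 3340 and 3134, 470 and 210, and 459 and 733. Deviations of same-numbered arrays correlated at -0.23 between Mettl14 knockdown and scramble at 8 h. Over all pairs of time course groups these correlations ran between -0.44 and 0.34. With signs both ways they cannot settle whether replicate numbers pair the arrays. With the replicate block the counts were 3487 and 2903, 481 and 181, and 513 and 583. A crossed pairing, also chosen after seeing the data, gave 3562 and 2984. No alternative reversed a named gene. With 2 arrays per group, signal over background and array number limit what dim genes can show.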
